A study of Homo sapiens with 15 samples.

Results

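The feedback genes of the EGF receptor (EGFR) and ERK pathway were followed across 15 whole-transcript Affymetrix arrays of C42B, an established prostate cancer cell line that derives from LNCaP and grows without androgen. The set was chosen by gene symbol: ERRFI1, DUSP4, DUSP5, DUSP6, SPRY1, SPRY2, SPRY4, SPRED1, SPRED2 and MAP3K8. All 10 were measured, each by 1 probe set, among 17687 genes with a name. ERRFI1, DUSP4 and MAP3K8 were selected on their responses in these same arrays, so their values are given as a description with no test. The other 7 were chosen by function and were tested.

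The 6 groups were compared after 6 h of exposure. The controls received the vehicle dimethyl sulfoxide (DMSO, 0.125%, 3 arrays). Single agents were 10 µM enzalutamide, which blocks the androgen receptor (2 arrays), 15 µM PF-543, which inhibits sphingosine kinase 1 (3 arrays), and 15 µM ABC294640, or opaganib, which inhibits sphingosine kinase 2 (1 array). The combinations were enzalutamide with PF-543 (3 arrays) and enzalutamide with ABC294640 (3 arrays), at the same doses. All groups are 1 cell line, the labels give no DMSO percentage for treated cells, and they do not say that replicates were separate cultures. The p-values below therefore weigh differences of group means only against the spread among these samples, and that spread may be technical.

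When a growth factor binds EGFR, adaptor proteins load RAS with GTP, and RAF, MEK and ERK are phosphorylated in turn. ERK signalling raises the transcription of its own inhibitors, which act at several levels of the cascade. ERRFI1 (also called MIG6) binds the kinase domain of EGFR and blocks it. Sprouty proteins (SPRY) and the related SPRED proteins restrain the activation of RAS and RAF, and SPRED proteins do so by bringing the RAS inactivator neurofibromin to the membrane. The dual-specificity phosphatases DUSP4, DUSP5 and DUSP6 remove the activating phosphates from MAP kinases, DUSP5 mainly from ERK in the nucleus and DUSP6 mainly from ERK in the cytoplasm. MAP3K8 (TPL2 or COT) differs from the other 9 in its action, since it is a kinase that activates MEK and is no inhibitor of the pathway.

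The 3 DMSO arrays stood apart from the 12 treated arrays. Their scores on the first principal component (15.3% of the variance) were 18.9 to 24.8, and those of the treated arrays -11.6 to 0.03. Comparisons that use no DMSO array were therefore made as well. Among them were enzalutamide with PF-543 against PF-543 alone, enzalutamide with ABC294640 against the single ABC294640 array, and each combination against enzalutamide. Most genes of the pathway lists are given against DMSO only, so the part of the DMSO arrays in their values was not checked. The cells carried the markers of prostate luminal cells, with KLK3 (prostate-specific antigen) at 16.21 log2 units in DMSO and FOLH1 at 14.65. The summed level of 8 luminal markers was 17.37 to 17.40 on the DMSO arrays, 17.31 to 17.36 with PF-543, and 17.12 to 17.25 on the 8 arrays with enzalutamide. The summed level of 5 fibroblast markers was 9.70 to 10.00 in DMSO and 9.24 to 9.75 on treated arrays. The sum of 5 leukocyte markers ranged from 8.61 to 9.05 over all arrays, that of 4 endothelial markers from 6.70 to 7.39, and that of 2 basal markers from 4.99 to 5.53. The part of these shifts in the results below was not tested.

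ERRFI1 was lower on every array with enzalutamide than on every array without it. It measured 13.71, 13.70 and 13.77 log2 units on the DMSO arrays and 12.81 and 12.78 on the enzalutamide arrays. With PF-543 alone it measured 13.72, 13.48 and 13.66, and on the ABC294640 array 13.41. Enzalutamide with PF-543 gave 12.86, 13.18 and 12.98, and the combination with ABC294640 gave 13.01, 12.97 and 12.91. The 8 arrays with enzalutamide thus ranged from 12.78 to 13.18 and the 7 without it from 13.41 to 13.77, with no overlap. Over all genes, 0.673% had no overlap in this split (119 of 17687), and 1 of the 10 feedback genes did. Nothing is read from that count, since ERRFI1 was selected on its response.

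The group means of ERRFI1 were 13.73 ± 0.04 (SD, n = 3) in DMSO and 12.80 ± 0.02 (SD, n = 2) with enzalutamide, a log2 difference of -0.93, or 1.91-fold lower. PF-543 alone, at 13.62 ± 0.12 (SD, n = 3), was close to DMSO. Its array at 13.72 lay in the DMSO range, and those at 13.48 and 13.66 lay below it. Against PF-543 alone, the combination with PF-543 was lower by a log2 difference of -0.61 (mean 13.01 ± 0.16, SD, n = 3). Against the single ABC294640 array, the combination with ABC294640 was lower by -0.45 (mean 12.96 ± 0.05, SD, n = 3). Both combinations lay slightly above enzalutamide alone, by 0.21 and 0.17 log2 units. The order of the group means was DMSO, PF-543, ABC294640, enzalutamide with PF-543, enzalutamide with ABC294640, and enzalutamide. Neighbours in that order overlapped for DMSO and PF-543 and for the 2 combinations.

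The promoter of ERRFI1 is shown because it was the 1 of the 10 with no overlap between arrays with and without enzalutamide. RefSeq (GRCh38.p14) gives 1 start for it in the table used, on the minus strand, and the 250 bases before that start span chr1:8026310-8026559. Capitals mark matches to the TATA motif TATANA, here 3 that overlap one another near the start.
ERRFI1: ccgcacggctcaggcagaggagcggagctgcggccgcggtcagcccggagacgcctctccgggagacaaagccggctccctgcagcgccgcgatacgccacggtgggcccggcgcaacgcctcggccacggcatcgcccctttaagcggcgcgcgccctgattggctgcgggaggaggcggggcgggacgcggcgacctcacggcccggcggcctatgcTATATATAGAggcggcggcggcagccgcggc
The window held no AGAACA half-site of the androgen receptor on either strand, and of the 14 windows of the feedback genes 2 did, both of them SPRY2 windows. Of 35116 promoter windows of this length in the table, 12.4% held AGAACA and 17.7% held TATANA. A match is a description of the letters and not a binding site.

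DUSP4 was lower in the groups that received enzalutamide, with a smaller gap than ERRFI1 and 1 pair of arrays that crossed. It measured 9.94, 9.94 and 9.66 log2 units in DMSO and 9.13 and 9.19 with enzalutamide. PF-543 alone gave 9.71, 10.09 and 9.76, and the ABC294640 array gave 9.95. The combination with PF-543 gave 9.24, 9.26 and 9.19, and the combination with ABC294640 gave 9.67, 9.35 and 9.49. The arrays with enzalutamide ranged from 9.13 to 9.67 and those without it from 9.66 to 10.09. The crossing came from replicate 1 of the combination with ABC294640, at 9.67, and replicate 3 of DMSO, at 9.66.

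The mean of DUSP4 was 9.85 ± 0.16 (SD, n = 3) in DMSO, 9.85 ± 0.21 (SD, n = 3) with PF-543 and 9.16 ± 0.04 (SD, n = 2) with enzalutamide. The log2 difference of enzalutamide from DMSO was -0.69, or 1.61-fold lower. Without any DMSO array, the combination with PF-543 differed from PF-543 alone by -0.62 and the combination with ABC294640 from the ABC294640 array by -0.45. The combinations differed in their distance from enzalutamide alone. That with PF-543 averaged 9.23 ± 0.04 (SD, n = 3), 0.07 above enzalutamide, and its range overlapped that of enzalutamide. That with ABC294640 averaged 9.50 ± 0.16 (SD, n = 3), 0.34 above it, and its 3 arrays did not overlap those of enzalutamide. The share of all genes without overlap between such small groups was not counted. Nothing is read from a lack of overlap between a single pair of groups, here or below.

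MAP3K8, the MEK-activating kinase, moved the other way and was lowest in DMSO. It measured 7.19, 7.06 and 6.91 log2 units on the DMSO arrays, and 8.59 and 8.07 on the enzalutamide arrays. PF-543 alone gave 7.75, 7.32 and 7.63, and the ABC294640 array 7.76. Enzalutamide with PF-543 gave 7.97, 8.21 and 7.83, and the combination with ABC294640 gave 7.60, 7.70 and 7.83. The 3 DMSO arrays, at 6.91 to 7.19, lay below all 12 treated arrays, at 7.32 to 8.59. Of all genes, 3.45% separated the DMSO arrays from the treated ones without overlap (611 of 17687). MAP3K8 was the only one of the 10 feedback genes to do so, and nothing is read from this count either.

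The log2 difference of MAP3K8 between enzalutamide and DMSO was 1.28 (means 8.33 ± 0.37, SD, n = 2, and 7.05 ± 0.14, SD, n = 3), or 2.42-fold higher. This value rests on a pair of enzalutamide arrays with the widest spread of any group (SD 0.37): without replicate 1 it was 1.02, and without replicate 2 it was 1.54. PF-543 alone was 0.51 above DMSO, with no enzalutamide present, and the ABC294640 array 0.71 above it. Without the DMSO arrays the enzalutamide difference was smaller. It was 0.44 between the combination with PF-543 (8.0 ± 0.19, SD, n = 3) and PF-543 alone (7.57 ± 0.22, SD, n = 3), and -0.05 between the combination with ABC294640 (7.71 ± 0.12, SD, n = 3) and the ABC294640 array. The combination with ABC294640 lay 0.62 below enzalutamide alone, and -0.36 and -0.88 were the differences without enzalutamide replicate 1 and replicate 2. The DMSO arrays stood apart over the whole transcriptome, and the part of that in the values of MAP3K8 against DMSO was not tested.

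The table holds 3 starts for MAP3K8 on the plus strand, and the window before the second of them is shown because it was 1 of 14 windows of 8 feedback genes to hold the AP-1 motif TGANTCA, the recognition sequence of FOS and JUN. It spans chr10:30433934-30434183, and capitals mark the AP-1 match.
MAP3K8: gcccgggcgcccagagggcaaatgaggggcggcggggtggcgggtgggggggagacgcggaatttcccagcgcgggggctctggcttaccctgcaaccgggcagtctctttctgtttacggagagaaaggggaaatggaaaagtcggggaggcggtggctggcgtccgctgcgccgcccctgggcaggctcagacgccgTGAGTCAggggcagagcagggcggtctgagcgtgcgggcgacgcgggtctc
Over all 35116 windows, 6.57% held TGANTCA on either strand. None of the 14 windows held the CRE motif TGACGTCA or the serum response element (SRE), which 1.65% and 1.16% of all windows held. DUSP4 and DUSP5 had no window in the table.

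**Figure D1:**
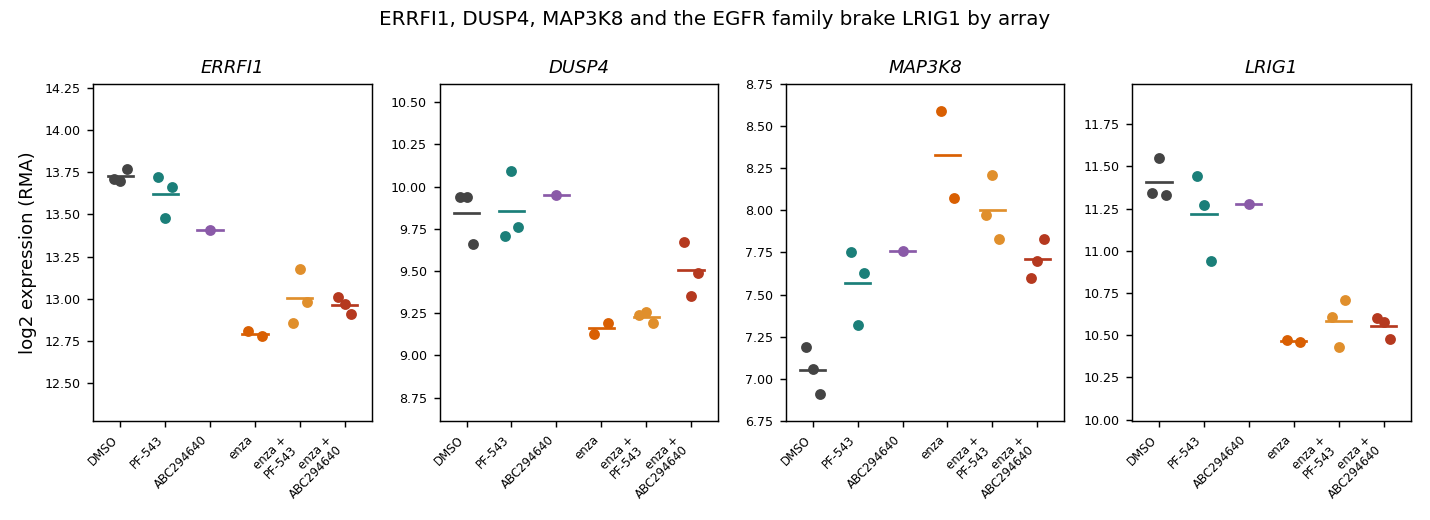
log2 expression of ERRFI1, DUSP4, MAP3K8 and LRIG1, a further brake on EGFR described later (vertical axes, each spanning the same number of log2 units) in the 6 groups (horizontal axis, "enza" for enzalutamide). Each dot is 1 array and each horizontal bar a group mean. ERRFI1 lies at 12.78 to 13.18 on the 8 arrays with enzalutamide and at 13.41 to 13.77 on the 7 without it, DUSP4 crosses by 1 pair of arrays, MAP3K8 is lowest in DMSO, and LRIG1 is split by enzalutamide as ERRFI1 is.

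None of the 7 feedback genes chosen by function passed the test between enzalutamide and DMSO, in limma at an adjusted p of 0.05 over all 17687 genes. In this comparison 0.311% of all genes passed (55 of 17687), and 1 of the 7, DUSP5, had an unadjusted p under 0.05, as did 12.9% of all genes. The median log2 difference of the 7 was -0.11, against -0.01 over all genes. PF-543 against DMSO called 0.565% of all genes and 0 of the 7, with 2 at an unadjusted p under 0.05 (SPRY1 and SPRED1), as for 15.5% of all genes. The single ABC294640 array against DMSO called 0% of all genes and 0 of the 7, with 1693 genes (9.57%) at an unadjusted p under 0.05, of which 2 were feedback genes (SPRED1 and DUSP5). In this fit the lone array takes its error from the groups with replicates.

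The combinations gave the same count. Against DMSO, enzalutamide with PF-543 called 2.02% of all genes and enzalutamide with ABC294640 0.701%, and 0 of the 7 passed in either, with 1 and 3 at an unadjusted p under 0.05. The share of all genes at that unadjusted threshold was 18.7% and 16%. Against enzalutamide alone, 0.0283% of genes passed with PF-543 and 0% with ABC294640, where 1200 genes had an unadjusted p under 0.05. Again 0 of the 7 passed, with 2 in each comparison at an unadjusted p under 0.05, against 7.83% and 6.78% of all genes. Enzalutamide with PF-543 against PF-543 alone called 0.311% of genes, and enzalutamide with ABC294640 against the ABC294640 array 0.0792%. In both, 0 of the 7 passed and 0 had an unadjusted p under 0.05, against 8.27% and 6.95% of all genes. The 2 combinations against each other differed in 0.0961% of genes and in 0 of the 7, with SPRY2 at an unadjusted p under 0.05, as for 7.21% of all genes. A moderated F test over the 6 groups called 0.78% of all genes and 0 of the 7, of which 3 had an unadjusted p under 0.05 (SPRY1, SPRY2 and DUSP5), as did 14.8% of all genes. Fits under the other settings tried also gave 0 of 7 in each of these comparisons, except for SPRY1 as described next.

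SPRY1, a Sprouty protein, came nearest to the threshold. It measured 10.03, 9.96 and 9.73 log2 units in DMSO, 9.65 and 9.65 with enzalutamide, 9.79, 9.40 and 9.64 with PF-543, and 9.77 on the ABC294640 array. The combination with PF-543 gave 9.22, 9.46 and 9.49, the lowest group mean, and the combination with ABC294640 gave 9.68, 9.68 and 9.46. All 3 arrays of the combination with PF-543 lay below all 3 DMSO arrays. The log2 difference was -0.52 (SE 0.12, 95% interval -0.78 to -0.25, limma adjusted p = 0.0522), or 1.43-fold lower.

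The place of SPRY1 relative to the threshold depended on the settings. The adjusted p ranged from 0.0110 to 0.155 over the alternatives, and it was under 0.05 in 7 of them, among them the fits without DMSO replicate 3 (-0.60, adjusted p = 0.0490) and without PF-543 replicate 2 (adjusted p = 0.0466). Each single step of the combination was smaller. SPRY1 differed from DMSO by -0.26 with enzalutamide (adjusted p = 0.467), by -0.30 with PF-543 (adjusted p = 0.276) and by -0.30 with enzalutamide and ABC294640 (adjusted p = 0.264). Against the single agents, the combination with PF-543 differed by -0.26 from enzalutamide and by -0.22 from PF-543. These differences share the DMSO or combination arrays and are not separate evidence of a direction.

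A promoter of SPRY1 is shown because SPRY1 was nearest to the threshold. The table holds 2 starts for it on the plus strand. The window before the second is shown because it held a motif match, and the first held no match to the motifs searched. The second window spans chr4:123398136-123398385, and capitals mark the match to the ETS motif CCGGAAG, bound by transcription factors that ERK phosphorylates.
SPRY1: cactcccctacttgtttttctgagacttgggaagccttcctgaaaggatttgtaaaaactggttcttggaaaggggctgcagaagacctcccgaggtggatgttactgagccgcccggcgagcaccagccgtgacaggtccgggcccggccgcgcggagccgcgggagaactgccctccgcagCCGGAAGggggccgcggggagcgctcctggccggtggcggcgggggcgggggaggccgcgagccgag
Of all windows, 8.52% held CCGGAAG on either strand. It was in 1 of the 14 windows of the feedback genes.

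SPRY2, the second Sprouty gene, was dim. It measured 4.15, 4.11 and 4.16 log2 units in DMSO, 3.89 and 3.82 with enzalutamide, 4.45, 4.38 and 3.79 with PF-543, and 4.44 with ABC294640. Enzalutamide with PF-543 gave 3.97, 4.10 and 4.38, and the combination with ABC294640 gave 4.48, 4.74 and 4.36. Its mean over all arrays, 4.21, was below the first quartile of gene means, 4.65, and no detection calls were used here, so low values may be background. The 3 arrays of enzalutamide with ABC294640 lay above both enzalutamide arrays, by a log2 difference of 0.67 (SE 0.18, 95% interval 0.27 to 1.07, adjusted p = 0.522). Against DMSO the same combination differed by 0.39 (adjusted p = 0.276), and the 2 combinations differed by -0.38 (PF-543 minus ABC294640, adjusted p = 0.672). None of these passed.

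SPRY4, the third, was dimmer still, with a mean of 3.88 over all arrays. It measured 3.82, 3.73 and 3.76 log2 units in DMSO, 3.82 and 3.50 with enzalutamide, 3.80, 3.44 and 4.04 with PF-543, and 4.20 with ABC294640. The combination with PF-543 gave 3.78, 4.28 and 4.17, and the combination with ABC294640 gave 4.06, 4.05 and 3.79. The groups with replicates all overlapped one another. The largest tested difference with replicates on both sides was 0.42, for enzalutamide with PF-543 against enzalutamide (adjusted p = 0.608).

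SPRED1 and SPRED2 bring neurofibromin to RAS, and they gave opposite signs against DMSO. SPRED1 measured 7.01, 7.01 and 7.39 log2 units in DMSO, 6.95 and 6.85 with enzalutamide, 6.90, 6.73 and 6.71 with PF-543, and 6.59 with ABC294640. Enzalutamide with PF-543 gave 7.18, 6.71 and 6.95, and the combination with ABC294640 gave 6.88, 6.52 and 6.93. Of the 12 treated arrays, 1 reached the DMSO range, the 7.18 of enzalutamide with PF-543. SPRED1 differed from DMSO by -0.36 with PF-543 (95% interval -0.68 to -0.03, adjusted p = 0.276), by -0.36 with enzalutamide and ABC294640 (adjusted p = 0.264) and by -0.55 on the ABC294640 array (95% interval -1.0 to -0.09, adjusted p = 0.452). No difference passed the test, and all of these use the same 3 DMSO arrays. The enzalutamide difference of SPRED1 was -0.24 against DMSO. Without DMSO arrays it was 0.17 between the combination with PF-543 and PF-543 alone. Between the combination with ABC294640 and the single ABC294640 array it was 0.19.

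SPRED2 measured 9.62, 9.46 and 9.37 log2 units in DMSO and 9.44 and 9.67 with enzalutamide. PF-543 gave 10.08, 10.08 and 9.28, the widest spread of any group for this gene (SD 0.46), and the ABC294640 array 9.70. The combination with PF-543 gave 9.74, 9.66 and 9.58, and the combination with ABC294640 gave 9.55, 9.75 and 9.65. PF-543 replicate 3 was the lowest of all 15 arrays and the other two the highest. The difference of PF-543 from DMSO was 0.33 (adjusted p = 0.397), and 0.60 without PF-543 replicate 3 or 0.20 without replicate 1 or replicate 2. For enzalutamide the difference from DMSO was 0.07. It was -0.15 between the combination with PF-543 and PF-543 alone, and -0.05 between the combination with ABC294640 and the ABC294640 array. None of these passed.

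DUSP5, the nuclear ERK phosphatase, was highest with enzalutamide alone. It measured 5.29, 5.26 and 5.46 log2 units in DMSO, 5.45 and 5.98 with enzalutamide, 5.22, 5.50 and 5.27 with PF-543, and 4.85 with ABC294640. Enzalutamide with PF-543 gave 5.09, 5.17 and 5.19, and the combination with ABC294640 gave 5.04, 5.57 and 5.30. Enzalutamide alone and its combination with PF-543 did not overlap, and differed by -0.56 (combination minus enzalutamide, SE 0.17, 95% interval -0.93 to -0.20, adjusted p = 0.429). This value rests on 2 enzalutamide arrays, and was -0.83 without replicate 1 and -0.30 without replicate 2. Enzalutamide differed from DMSO by 0.38 (95% interval 0.01 to 0.75, adjusted p = 0.377), and the combination with ABC294640 from enzalutamide by -0.41 (adjusted p = 0.702). Replicate 2 of enzalutamide, at 5.98, was the highest array, and without it the difference from DMSO was 0.11.

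DUSP6, the cytoplasmic ERK phosphatase, is often read as a marker of ERK activity. It measured 4.71, 4.65 and 5.01 log2 units in DMSO, 5.06 and 4.71 with enzalutamide, 5.18, 4.68 and 4.52 with PF-543, and 4.73 with ABC294640. The combination with PF-543 gave 5.15, 5.08 and 5.08, and the combination with ABC294640 gave 5.08, 4.64 and 4.91. The 3 arrays of enzalutamide with PF-543 lay just above the DMSO range, by a log2 difference of 0.31 (95% interval -0.06 to 0.68, adjusted p = 0.353). Other groups overlapped DMSO. Its mean over all arrays, 4.88, and that of DUSP5, 5.31, lay just above the first quartile of gene means.

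**Figure D2:**
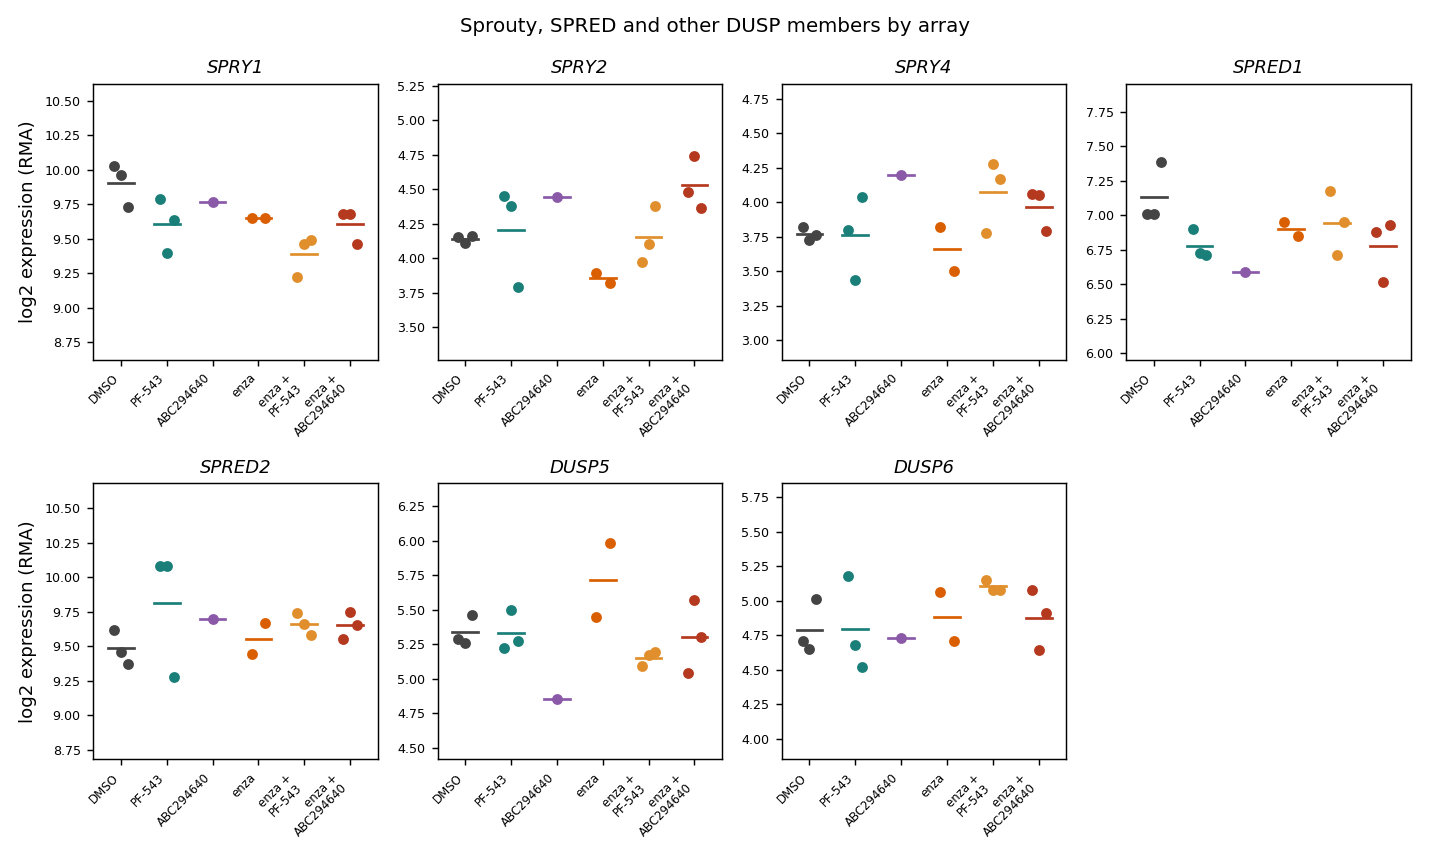
log2 expression of the 7 feedback genes chosen by function (vertical axes, each spanning the same number of log2 units) in the 6 groups (horizontal axis, "enza" for enzalutamide). Each dot is 1 array and each horizontal bar a group mean. SPRY1 is lowest in enzalutamide with PF-543, at 9.22 to 9.49, and SPRED2 shows the widest spread within PF-543, while most groups overlap.

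A missed threshold does not show that these genes were unaffected. Over the 10 comparisons, the 95% intervals reached from -0.78 to 0.26 for SPRY1, from -0.73 to 1.07 for SPRY2 and from -0.73 to 0.93 for SPRY4. They reached from -1.0 to 0.64 for SPRED1 and from -0.60 to 0.76 for SPRED2. For DUSP5 they reached from -0.95 to 0.92, and for DUSP6 from -0.59 to 0.68. Each pair of limits is the lowest and the highest bound over the 10 comparisons, so it is wider than the interval of any 1 of them.

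**Figure D3:**
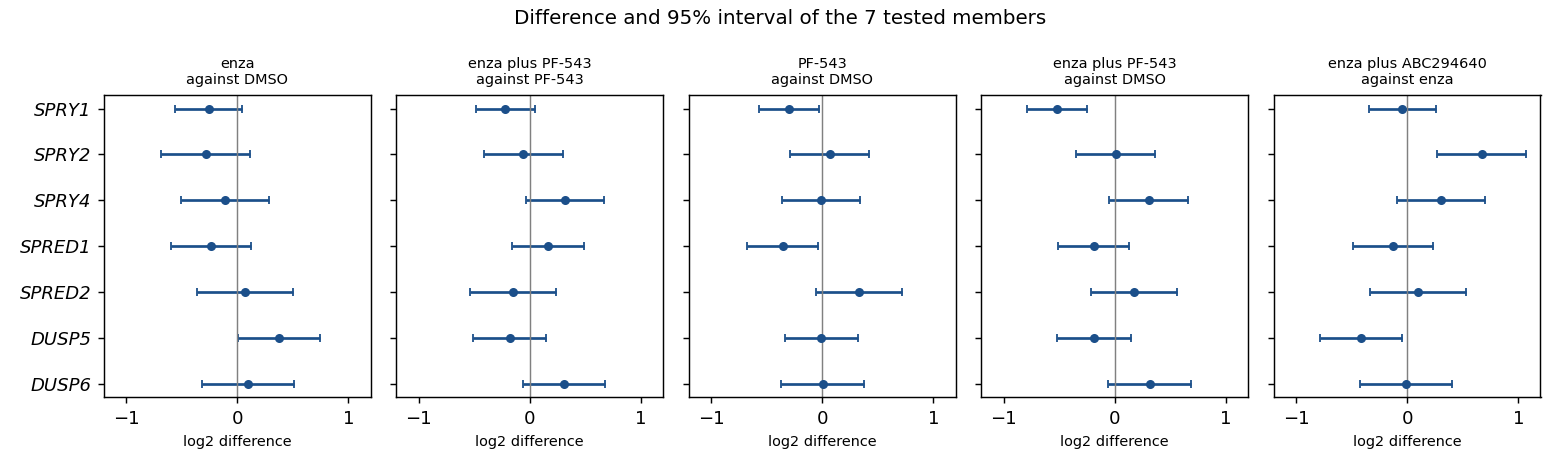
log2 difference (horizontal axis) with its 95% confidence interval for the 7 feedback genes chosen by function (rows), in 1 panel for each of 5 comparisons ("enza" for enzalutamide). Each dot is a fitted difference and each line its interval. The interval of SPRY1 in enzalutamide with PF-543 against DMSO, -0.78 to -0.25, lies clear of 0, and its adjusted p is 0.0522.

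The sphingosine kinase inhibitors can be compared at the same dose and time through the combinations. Enzalutamide with PF-543 minus enzalutamide with ABC294640 gave -0.38 for SPRY2, -0.22 for SPRY1, 0.23 for DUSP6 and -0.15 for DUSP5, none of which passed. For the genes selected on their responses the same difference was -0.27 for DUSP4, with no overlap between the 3 and 3 arrays, 0.29 for MAP3K8 and 0.04 for ERRFI1. ERRFI1 overlapped between the combinations, and MAP3K8 met at 7.83 in both.

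The rest of the EGFR and ERK pathway was read from 9 lists of 99 genes, of which 87 were measured. The lists were chosen with earlier results of these data known, so the counts and p-values of their genes are descriptive. Against DMSO, 1 of the 87 fell with enzalutamide and 0 rose, and the same gene, LRIG1, fell with both combinations. HRAS fell in addition with enzalutamide and PF-543. The share of all genes called in these comparisons was 0.311% with enzalutamide, 2.02% with enzalutamide and PF-543 and 0.701% with enzalutamide and ABC294640. In the other 7 comparisons 0 of the 87 passed in limma, with 11 and 7 at an unadjusted p under 0.05 for PF-543 and ABC294640 against DMSO, where 15.5% and 9.57% of all genes were. In the 5 comparisons without DMSO, 2 to 12 of the 87 were at that unadjusted threshold, and 6.78% to 8.27% of all genes. The median log2 difference of the 87 between enzalutamide and DMSO was 0.01, against -0.01 over all genes.

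LRIG1 is a membrane protein that binds EGFR family receptors and promotes their degradation, so it is a further brake on the pathway. It measured 11.34, 11.55 and 11.33 log2 units in DMSO, 10.47 and 10.46 with enzalutamide, 11.44, 11.27 and 10.94 with PF-543, and 11.28 with ABC294640. Enzalutamide with PF-543 gave 10.61, 10.43 and 10.71, and the combination with ABC294640 gave 10.60, 10.58 and 10.48. Like ERRFI1, it did not overlap between the 8 arrays with enzalutamide (10.43 to 10.71) and the 7 without it (10.94 to 11.55), as for 0.673% of all genes. Since its list was chosen with earlier results known, the p-values of LRIG1 are no independent test. LRIG1 fell with enzalutamide against DMSO by a log2 difference of -0.94 (SE 0.14, adjusted p = 0.0107), or 1.92-fold. It fell by 0.82 with enzalutamide and PF-543 (adjusted p = 0.0070) and by 0.85 with enzalutamide and ABC294640 (adjusted p = 0.0081), against the same DMSO arrays.

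Without DMSO arrays, LRIG1 differed by -0.63 between the combination with PF-543 and PF-543 alone (SE 0.13, 95% interval -0.90 to -0.36, adjusted p = 0.0615), and without PF-543 replicate 3 by -0.77 (adjusted p = 0.0199). Against the ABC294640 array it differed by -0.73 (adjusted p = 0.341). The call between enzalutamide and DMSO ended without DMSO replicate 2 (adjusted p = 0.0516), without enzalutamide replicate 1 (adjusted p = 0.0966) or replicate 2 (adjusted p = 0.116), and in a fit of the arrays compared alone (adjusted p = 0.155). That fit also ended the call for enzalutamide with PF-543 against DMSO (adjusted p = 0.0599).

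HRAS, one of the RAS proteins that pass the signal from the receptor to RAF, measured 9.90, 10.01 and 10.07 log2 units in DMSO and 9.48, 9.41 and 9.27 with enzalutamide and PF-543. It fell by 0.61 (SE 0.10, adjusted p = 0.0085), a call that ended in a fit of the arrays compared alone (adjusted p = 0.0809). Its lowest array outside this combination was 9.68, with PF-543 alone, so the 3 arrays lay below all others. The share of all genes that separate these 3 arrays was not counted, and nothing is read from it. In the moderated F test over the 6 groups HRAS did not pass (limma adjusted p = 0.0646). The combination differed by -0.48 from enzalutamide (adjusted p = 0.246), by -0.38 from PF-543 (adjusted p = 0.183) and by -0.50 from enzalutamide with ABC294640 (adjusted p = 0.126).

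By role, the other lists held no gene past the threshold between enzalutamide and DMSO. Of the 9 EGF family ligands measured the median difference was -0.10, and HBEGF differed by -0.10 (adjusted p = 0.832) and TGFA by 0.33 (adjusted p = 0.422). The largest difference was that of NRG4, at -0.45 (adjusted p = 0.611), a dim gene with a mean of 4.05 over all arrays. The 3 receptors measured were EGFR at -0.20 (adjusted p = 0.727), ERBB3 at 0.06 (adjusted p = 0.821) and ERBB4 at 0.25 (adjusted p = 0.448). Among 12 adaptors and RAS regulators the median was -0.03, and the largest difference was that of SOS1, which loads RAS with GTP, at -0.58 (adjusted p = 0.166). The mean of SOS1 was highest in DMSO, at 9.11. It was 8.86 with PF-543 alone and 8.81 with enzalutamide and PF-543. On the single ABC294640 array SOS1 was 8.58, and with enzalutamide and ABC294640 8.78. Of the 9 RAS, RAF, MEK and ERK genes measured, 4 were above 0, and the largest difference was that of the MEK kinase MAP2K2, at 0.16 (adjusted p = 0.564). No receptor or core kinase of the cascade passed in either direction.

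Of the 8 other MAP kinase phosphatases, 6 were above 0 with enzalutamide, with a median of 0.12, and DUSP7, which acts on ERK, had the largest difference, at 0.57 (adjusted p = 0.205). DUSP7 was 0.58 above DMSO with PF-543 alone as well (adjusted p = 0.113) and 0.62 above it with enzalutamide and ABC294640 (adjusted p = 0.0932). Its mean was lowest in DMSO, at 6.59. It was 7.17 with PF-543 alone and 7.01 with enzalutamide and PF-543. On the single ABC294640 array it was 7.17, and with enzalutamide and ABC294640 7.20. The part of the DMSO arrays in these differences was not tested. The 16 other brakes on receptor signalling included LRIG1, and of the other 15 the largest difference was that of SOCS2, a suppressor of cytokine signalling, at -0.53 (adjusted p = 0.267). The mean of SOCS2 was 8.46 with PF-543 alone and 7.78 with enzalutamide and PF-543. On the single ABC294640 array SOCS2 was 8.33, and with enzalutamide and ABC294640 7.78. The 18 ERK output genes, a list of genes that ERK signalling induces and of transcription factors through which it acts (ELK1, ELK3 and SRF), had a median of -0.01, with 9 above 0. The largest fall was that of PLAUR, at -0.51 (adjusted p = 0.255), and the largest rise that of JUNB, at 0.42 (adjusted p = 0.233). Familiar genes of this list were EGR1 at -0.19 (adjusted p = 0.823), FOS at 0.22 (adjusted p = 0.602) and ETV4 at -0.39 (adjusted p = 0.432). CCND1 stood at 0.11 (adjusted p = 0.734) and PHLDA1 at -0.04 (adjusted p = 0.937). The 8 JNK and p38 kinases had a median of 0.02, and the largest difference was that of MAPK9, at 0.435 (adjusted p = 0.146). The 4 partners of MAP3K8, among them NFKB1, had a median of 0.10.

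**Figure D4:**
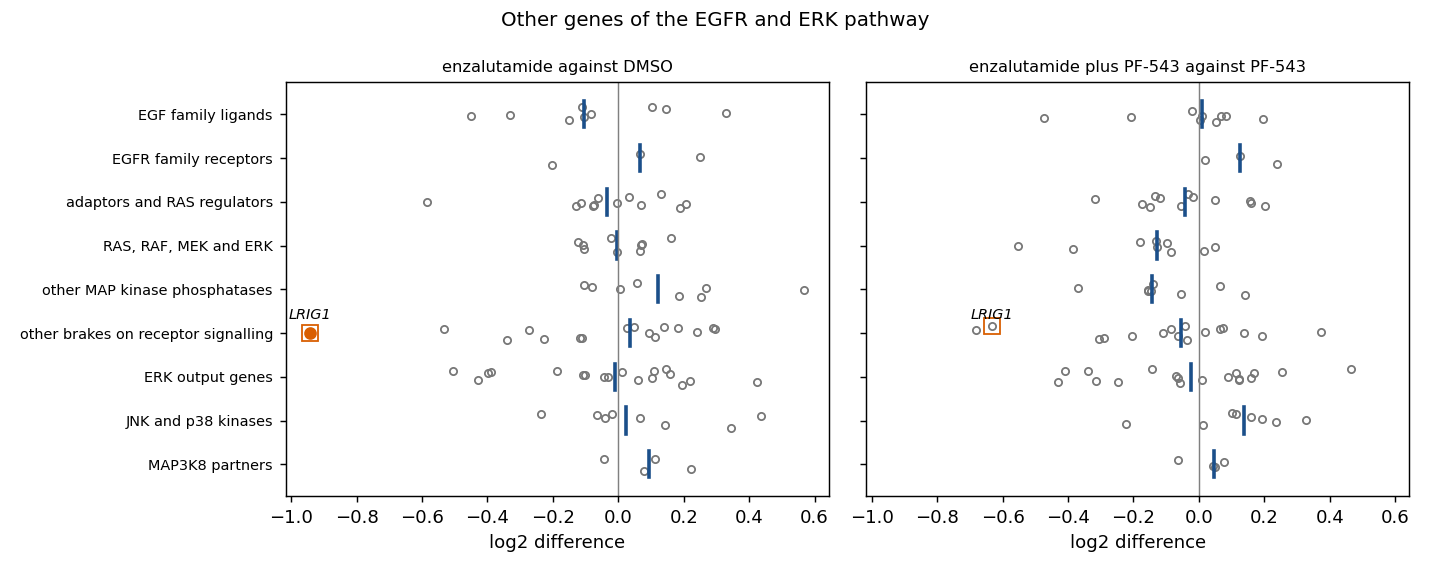
log2 difference (horizontal axis) of each measured pathway gene by list (rows), for enzalutamide against DMSO on the left and enzalutamide with PF-543 against PF-543 on the right. Open circles did not pass, the filled orange circle has an adjusted p under 0.05, a square marks LRIG1 and the blue bars are list medians. LRIG1, at -0.94, is the 1 gene past the threshold on the left, and none passed on the right, where it lies at -0.63.

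Genes that followed the feedback genes over the 15 arrays were found by Pearson correlation among 13263 genes with a mean above the first quartile. The arrays share 6 treatments, so these are descriptions of group patterns with no test. ERRFI1 was most like DIPK2A (r = 0.949), C1orf116 (r = 0.948) and FBXO38 (r = 0.940). DUSP4 was most like PTPN21 (r = 0.937), ELL2 (r = 0.901) and SLC36A1 (r = 0.899). MAP3K8 was most like PTP4A2 (r = 0.861), RAB27B (r = 0.857) and PUS7 (r = 0.855). SPRY1 was most like PSMD3 (r = 0.890), ECHDC2 (r = 0.890) and BCL2L12 (r = 0.881). For the other 6, the 3 nearest genes of each had an r of 0.783 to 0.857. The highest of 13263 correlations over 15 arrays is large by selection alone. No baseline was made for it, so nothing is read from these values.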

How the data were processed

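Each of 15 RNA samples of C42B cells was hybridised to 1 array, and its group was read from the labels. Values are deposited as log2 expression for each probe set, which the authors made with RMA and Transcriptome Analysis Console 4.02, per the submitters' processing notes. Genome build: not given in the sources used here. RMA brings arrays to a common distribution and would hide a shift of most genes in 1 direction, and array medians were 6.71 to 6.76. The number of arrays limits the precision.

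Of 21448 probe sets, 17709 had 1 gene symbol, 0 had more than 1, and 3739 carried no name here. RefSeq held all 17709 by Entrez identifier, and 20 genes with several probe sets kept the one with the highest mean, which left 17687 genes. All arrays entered 1 fit of 6 group means with limma 3.58.1 in R 4.3.3 (9 residual and 3.82 prior degrees of freedom), with Benjamini-Hochberg adjustment over all genes in each of 10 contrasts and in a moderated F test, at 0.05. All adjusted p-values are from this limma fit or its alternatives. The fit was tested on simulated data. In comparisons with replicates it recovered 18% to 35% of changes of 0.5 log2 units and 73% to 83% of changes of 1. With the single ABC294640 array it recovered fewer. Changes of 0.5 log2 units were thus mostly missed. The labels name no batch.

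The members and the pathway and marker lists were chosen with earlier results of these data known. Named genes are the 10 members, list genes past the threshold or with the largest difference where a value helps, and the 3 genes most correlated with each member. HBEGF, TGFA, EGFR, ERBB3, EGR1, FOS, ETV4, CCND1, PHLDA1 and NFKB1 were added as familiar pathway genes after their values were seen. Alternatives were other normalizations, a filter on dim genes, all probe sets, another prior, array weights, smaller fits, a replicate block, a 2-fold minimum and leaving out each array, and a fit without the DMSO arrays was added after the data were seen. Promoter sequences are from RefSeq (GRCh38.p14), and the TATA motif was added after the sequences were seen. A summed marker level is the log2 of the sum of linear values. Figures used matplotlib 3.10.9 in Python 3.11.15.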

Additional observations from a re-analysis of the deposited data

Results flagged for a closer look

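The DUSP5 difference made by enzalutamide had opposite signs alone and on a background of PF-543. In log2 units it was 0.38 against DMSO and -0.18 against PF-543, with every enzalutamide array above the DMSO mean and every array of the combination below the PF-543 mean, although enzalutamide replicate 1 (5.45) lay within the DMSO range. The difference between these effects was -0.56 (SE 0.23, limma adjusted p = 0.582, unadjusted p = 0.0300). It did not pass the threshold. HRAS differed by -0.12 with enzalutamide against DMSO and by 0.12 with enzalutamide and ABC294640 against the single ABC294640 array, with its arrays on opposite sides of the respective control mean, a difference of 0.24 (SE 0.17, adjusted p = 0.749) that did not pass either. Over all 17687 genes, 0 passed this test for PF-543 and 0 for ABC294640, with 1428 and 1459 at an unadjusted p under 0.05.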

How the results depend on the processing

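The count of tested feedback genes past the threshold stayed at 0 in 266 of 273 alternative values over 11 comparisons. The 7 that changed were all in enzalutamide with PF-543 against DMSO, where the count became 1, SPRY1, with quantile normalization, array median centring, cyclic loess, the dimmest 25% of genes left out (which also drops SPRY2 and SPRY4) or a robust trended prior, and it ranged from 0 to 1 when single arrays were left out. With the replicate block the count was 0 and SPRY1 stood at -0.52 (adjusted p = 0.0798). The 2-fold minimum can only lower a count, so its values of 0 were fixed by the main fit. Leaving out an array outside a comparison changes only the shared spread, so such values are weak checks. The replicate numbers did not pair the arrays: the mean correlation of deviations was -0.0032 over 26 same-numbered pairs, and 0 of them exceeded 0.1. Without the DMSO arrays, a fit chosen after seeing the data, the count was 0 in the 5 comparisons that it allows. Counts over all genes moved more, from 3 to 266 for enzalutamide against DMSO, where 55 passed. Arrays give no reading depth, and without detection calls the dim genes SPRY2, SPRY4, DUSP5 and DUSP6 carry the least information.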
